A study of Mus musculus with 2 samples.

Results

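The 35 genes described here encode the steps of glycolysis, the carriers that bring in glucose and let out lactate, and the core of the response to low oxygen. They were listed by function, matched by Ensembl identifier, and read in T cells of mouse skin and lung. All 35 were found among the 27514 gene identifiers that the gene lists of both tissues share. The data are single-cell RNA counts from 1 library of adult back skin and 1 library of adult lung, in which regulatory T cells had been sorted as GFP+ CD4+ CD3+ CD45+ after collagenase digestion. The skin came from Foxp3-CreERT2GFP C57Bl/6 mice, in which a GFP reporter and a tamoxifen-inducible Cre are tied to Foxp3, and the lung from Foxp3-GFP C57Bl/6 mice, which the labels add are of a "Tachilla strain". Tissue and mouse line therefore cannot be told apart. The labels give no age in numbers, no number of pooled animals and no treatment. A T cell was a barcode with at least 200 genes, at most 10% mitochondrial counts and at least 1 unique molecular identifier (UMI, the tag that marks 1 captured RNA molecule) of Cd3d, Cd3e or Cd3g, the CD3 chains of the T cell receptor. That left 6400 of 6601 skin barcodes and 8349 of 8730 lung barcodes, with 15820166 and 23434633 UMIs in shared genes. A second lung matrix was not used, since all 8626 of its barcodes occur in the lung matrix analysed.

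Glycolysis splits glucose into pyruvate in the cytosol. Hexokinases trap the sugar, phosphofructokinase commits it to the pathway, aldolase splits it, and the lower enzymes harvest ATP and NADH. Lactate dehydrogenase then turns pyruvate into lactate, which leaves the cell, while pyruvate dehydrogenase sends it to mitochondria. When oxygen is low, the prolyl hydroxylases encoded by Egln1 and Egln3 work less, HIF-1alpha (Hif1a) persists, and it binds short DNA motifs near many genes of this pathway. Effector T cells are known for a high glycolytic rate, and Foxp3 is known to restrain glycolysis in regulatory T cells. Ccr7 encodes the chemokine receptor that guides naive and central T cells to lymph nodes, and its absence is commonly used as a sign of tissue-resident or effector state.

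Levels are UMIs summed over the cells of a group and scaled to counts per 1000000 UMIs (CPM). With 1 library per tissue no difference between tissues can be tested, and no value below carries a p-value. Intervals are exact 95% intervals and cover counting error only, not the spread between animals. UMIs are counted near the 3' end, so levels of the same gene are compared between groups, not levels of different genes. In bulk sums of this kind, fewer cells with a transcript and less of it per cell give the same value.

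Properties of the libraries moved with tissue and with Ccr7 status. Median depth was 2078.5 UMIs per skin T cell and 2370 per lung T cell. The share of ribosomal protein genes was 18.9% in skin and 38.2% in lung of UMIs, a gap that shifts the CPM scale of all other genes. Early response genes, a class known to be induced by tissue digestion, took a median of 2.56% of a cell's UMIs in skin and 1.01% in lung. Foxp3 itself was read in 5.70% of the T cells of skin and 3.62% of those of lung, against 1.49% and 1.37% of barcodes with no Cd3 UMI, although all 6 regulatory T cell markers were detected in both and summed to 5418 CPM in skin and 1779 CPM in lung. Fibroblast markers (all 7 detected in both tissues) summed to 2150 CPM in skin and 81.4 CPM in lung. Lung epithelial markers summed to 6.57 CPM in skin T cells, where Sftpc, Sftpb, Sftpa1, Sftpd, Scgb1a1 and Scgb3a2 were at 0, and 3783 CPM in lung T cells, where all 9 were detected. Of the barcode sequences, 82 occurred in both libraries. The part of these properties in the differences below was not tested, except where a value without the cells concerned is given.

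The HIF complex is known to bind a core of RCGTG, here searched as ACGTG and GCGTG on both strands of the 250 bases before the transcription start (RefSeq, GRCm38.p6). A CACGTG is read on each strand and so counts as 2 overlapping matches. At least 1 match was present for 29 of the 33 members with a window (87.9%) and for 41.5% of 27025 genes in the table. Those 27025 genes were not limited to genes read in these cells, and the members were listed by function. The shares therefore come from unlike sets and are no test of enrichment. At least 1 match was present for 10 of the 11 members at least 2-fold higher in skin and for 19 of the 22 others. The windows of the 5 members with a match and the largest skin over lung ratios are printed with those of Gpi1 and Pgk1, the 2 well measured members with the ratio nearest 1. A match was required of the 5 and not of these 2, so the printed windows cannot be compared for how often they hold the motif. Tpi1 has a larger ratio than Aldoa, 4.49 against 4.33, but its window has 0 matches and is not printed. Where RefSeq lists several starts, the window with the most matches is shown. Capitals mark the motif, and each line runs 5′ to 3′ on the gene's strand and ends at the base before the start.
Ero1l: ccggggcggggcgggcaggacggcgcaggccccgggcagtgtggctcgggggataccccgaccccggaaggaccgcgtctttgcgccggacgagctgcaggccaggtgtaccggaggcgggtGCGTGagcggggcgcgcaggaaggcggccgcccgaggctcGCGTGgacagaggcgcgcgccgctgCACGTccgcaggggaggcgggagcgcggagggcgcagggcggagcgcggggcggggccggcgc
Aldoc: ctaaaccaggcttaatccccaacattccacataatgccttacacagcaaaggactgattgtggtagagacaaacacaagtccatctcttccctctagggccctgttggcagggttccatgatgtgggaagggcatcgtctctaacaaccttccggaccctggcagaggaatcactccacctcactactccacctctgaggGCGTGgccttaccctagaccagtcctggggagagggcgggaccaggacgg
Bnip3: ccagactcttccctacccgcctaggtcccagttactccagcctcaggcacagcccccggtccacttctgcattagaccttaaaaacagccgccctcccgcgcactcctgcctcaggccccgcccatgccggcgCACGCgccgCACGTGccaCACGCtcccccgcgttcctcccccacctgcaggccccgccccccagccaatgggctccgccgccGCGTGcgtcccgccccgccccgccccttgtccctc
Egln3: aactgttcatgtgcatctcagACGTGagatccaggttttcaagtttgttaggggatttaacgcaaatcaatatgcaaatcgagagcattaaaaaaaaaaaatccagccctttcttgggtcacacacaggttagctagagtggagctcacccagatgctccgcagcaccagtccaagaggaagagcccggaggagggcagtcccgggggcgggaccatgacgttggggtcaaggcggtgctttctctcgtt
Aldoa: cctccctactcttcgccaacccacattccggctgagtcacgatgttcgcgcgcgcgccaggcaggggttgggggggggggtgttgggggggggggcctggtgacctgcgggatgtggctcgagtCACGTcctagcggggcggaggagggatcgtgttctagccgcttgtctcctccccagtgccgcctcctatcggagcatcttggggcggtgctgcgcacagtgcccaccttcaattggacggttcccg
Gpi1: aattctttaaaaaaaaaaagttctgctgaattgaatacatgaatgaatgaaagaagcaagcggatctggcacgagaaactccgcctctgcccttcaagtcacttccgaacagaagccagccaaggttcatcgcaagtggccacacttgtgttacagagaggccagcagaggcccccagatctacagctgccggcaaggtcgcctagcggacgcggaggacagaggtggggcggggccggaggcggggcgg
Pgk1: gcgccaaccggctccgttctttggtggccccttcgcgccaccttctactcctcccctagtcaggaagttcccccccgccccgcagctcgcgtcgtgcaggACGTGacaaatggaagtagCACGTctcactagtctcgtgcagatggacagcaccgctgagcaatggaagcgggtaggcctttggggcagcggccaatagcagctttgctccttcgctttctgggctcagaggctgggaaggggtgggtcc

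These windows lie at chr14:45318573-45318822 (minus strand) for Ero1l, chr11:78322823-78323072 (plus strand) for Aldoc, chr7:138909507-138909756 (minus strand) for Bnip3, chr12:54203875-54204124 (minus strand) for Egln3, chr7:126799255-126799504 (minus strand) for Aldoa, chr7:34230337-34230586 (minus strand) for Gpi1 and chrX:106186850-106187099 (plus strand) for Pgk1. Bnip3 holds 5 matches, among them a CACGTG 108 bases before the start, and Ero1l (named Ero1a in RefSeq) holds 3. Pgk1 holds 2 matches, 150 and 131 bases before the start, and Gpi1 none. The bases just after the RefSeq start were found in a GENCODE transcript of the gene for 38 of 47 member windows. Of the printed windows, only that of Egln3 lacked this. A match is a string of letters and no measured binding, and matches were about as frequent among members with a 2-fold tissue difference (90.9%) as among the others (86.4%).

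Most of these genes took a larger share of the RNA of skin T cells than of lung T cells, but the steps of the pathway differed widely in size. On the scale log2(CPM + 5), used for all counts of genes and understating differences of low genes, 11 of the 35 members were at least 2-fold higher in skin: Slc2a1, Pfkp, Aldoa, Aldoc, Tpi1, Pgam1, Eno1, Pkm, Egln3, Bnip3 and Ero1l. None was at least 2-fold lower. Among the 7118 shared genes with a mean of at least 10 CPM, 12.5% passed 2-fold on the skin side and 4.31% on the lung side. The members' median log2 ratio was 0.71, and that of these 7118 genes was 0.31. All 11 passed the mean of 10 CPM, as did 28 of the 35. The last member inside the 2-fold threshold was Eno1 (log2 ratio 1.14) and the first outside was Hk1 (0.96).

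The scaling set part of these values. With totals that leave out mitochondrial and ribosomal protein genes the median of all genes moved to -0.03 and that of the members to 0.36, so that the distance between them was 0.39 under both scalings. On that scale 10 members passed 2-fold on the skin side and 1, Pdk1, on the lung side, against 7.81% and 7.995% of all genes. Of all genes called, 74.3% were higher in skin with plain CPM, 49.4% with those totals and 50.9% with median-of-ratios scaling. Under all 3 scalings 25 members were higher in skin and 5 lower (Ldhb, Pdk1, Pfkfb4, Bnip3l and Vegfa), while Gpi1, Pgk1, Pfkfb3, P4ha1 and Mif changed sign. The share of all genes that kept their sign was not counted. Their median was 0.31 with plain CPM, -0.03 with those totals and -0.01 with median-of-ratios scaling. Eno1 no longer passed 2-fold under either of the other scalings. In cells with under 1% early response UMIs, of which skin had 93 and lung 4068, Pfkp, Eno1 and Pkm no longer passed 2-fold, Hk1, Hk2 and Pfkfb3 did, and the members' median was 0.64. Summed over a step, the ratio was 2.67 for upper and 1.87 for lower glycolysis, 2.09 for the carriers, 1.95 for Hif1a and its hydroxylases, 1.67 for lactate and pyruvate fate and 1.496 for the hypoxia response genes. Such sums follow the genes with the most UMIs. Ldha held 13647 of the 14748 skin UMIs of lactate and pyruvate fate, where the median log2 ratio of the 3 members was -0.36. Mif held 6388 of the 17491 skin UMIs of the hypoxia response genes.

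**Figure D1:**
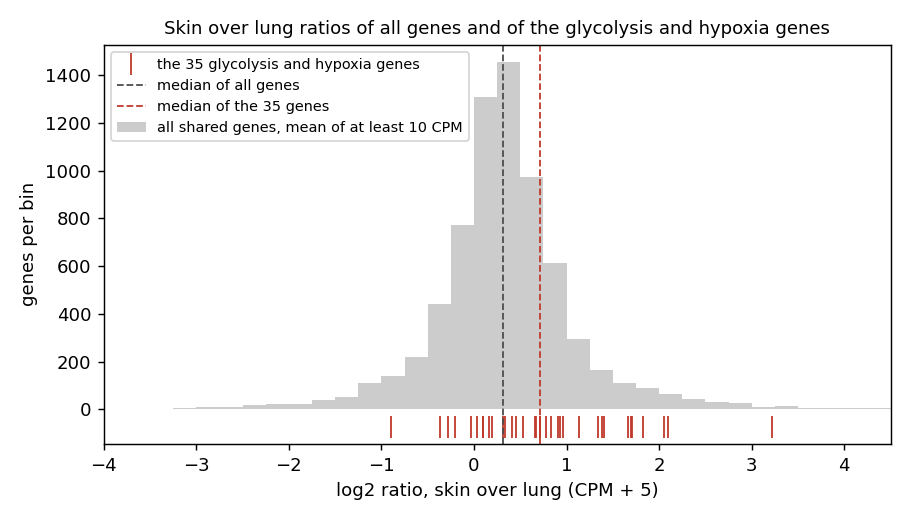
Log2 ratio of skin over lung T cells (horizontal axis, CPM + 5) for the 7118 shared genes with a mean of at least 10 CPM (grey bars, genes per bin) and for the 35 members (red ticks). The members' median (red dashes, 0.71) lies right of the median of all genes (grey dashes, 0.31), with Ero1l at 3.22 farthest right and Pdk1 at -0.90 farthest left.

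**Figure D2:**
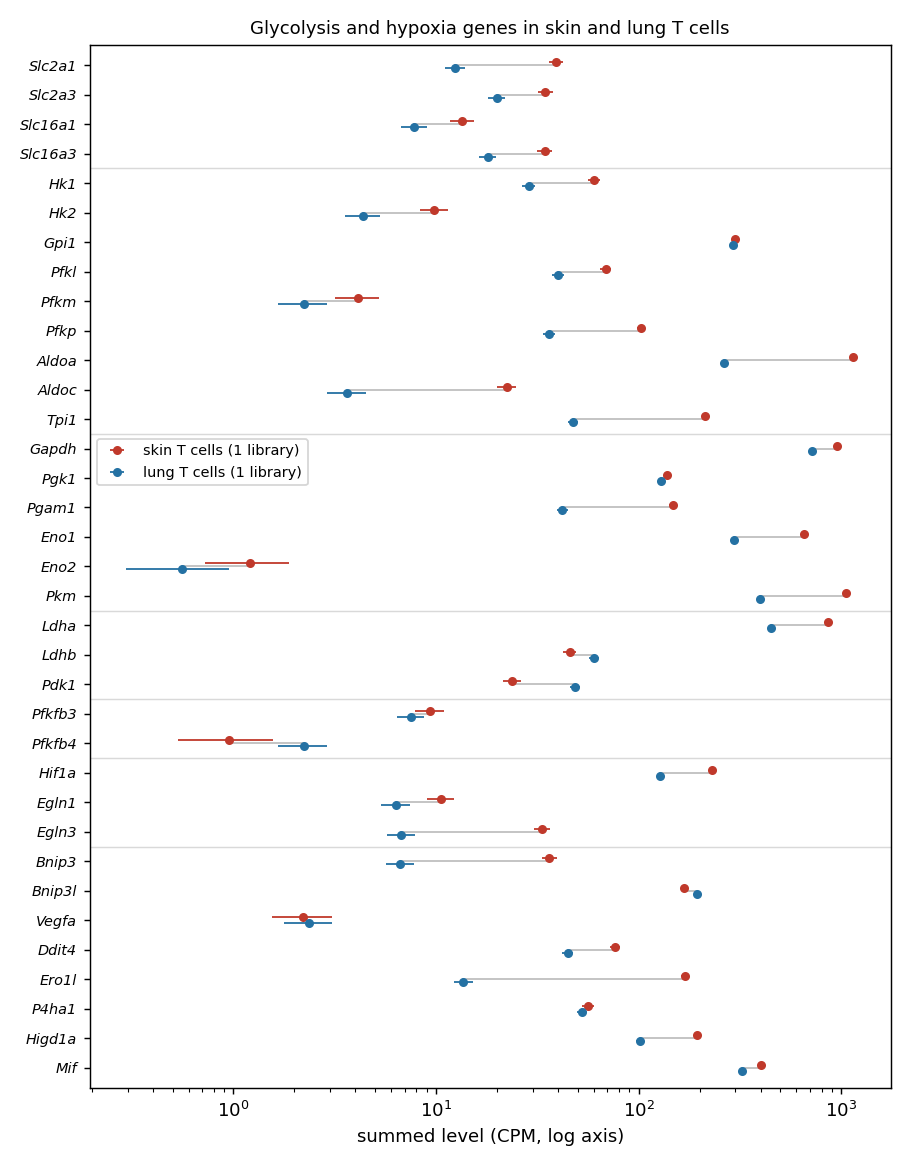
Summed level of each member in skin (red) and lung (blue) T cells in CPM on a log axis, with exact 95% Poisson intervals, grouped by step from carriers at the top to hypoxia response genes at the bottom. Points of Gpi1, Pgk1 and P4ha1 nearly coincide, while those of Aldoa, Tpi1, Pgam1 and Ero1l stand well apart.

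The carriers of glucose and lactate were all higher in skin. Slc2a1, which encodes the glucose carrier GLUT1 and lies at chr4:119108711-119137983 on the plus strand, had 39.3 CPM in skin T cells (36.2 to 42.5) and 12.5 CPM in lung T cells (11.1 to 14.0), a ratio of 3.15 (2.74 to 3.63). Slc2a3, the second glucose carrier of T cells, had 34.6 CPM in skin and 19.9 CPM in lung, a ratio of 1.74 (1.53 to 1.97). Slc2a1 therefore made up 53.2% of the UMIs of the pair in skin (50.3 to 56.1) and 38.5% in lung (35.04 to 42.1), intervals that do not overlap. The lactate carriers Slc16a1 and Slc16a3 had ratios of 1.72 (1.41 to 2.11) and 1.91 (1.68 to 2.17). Their split hardly differed, with Slc16a3 at 71.9% of the pair in skin and 69.8% in lung.

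In upper glycolysis the hexokinases and phosphofructokinases were higher in skin, the aldolases and Tpi1 were farther apart still, and Gpi1 was nearly equal. Hk1, the hexokinase of most tissues, had 60.3 CPM in skin and 28.6 CPM in lung (ratio 2.11, 1.91 to 2.33), and Hk2, the inducible form, had 9.80 and 4.35 CPM (2.25, 1.74 to 2.92). The next enzyme, glucose phosphate isomerase (Gpi1, chr7:34201330-34230336, minus strand), was nearly equal, with 301 CPM in skin (292 to 309) and 293 CPM in lung (286 to 300). Among the phosphofructokinases, which commit the sugar to the pathway, the platelet-type Pfkp had 103 CPM in skin and 36.1 CPM in lung (2.84, 2.61 to 3.09). Pfkl, the liver-type form, had 68.8 and 40.1 CPM (1.72, 1.57 to 1.88), and the muscle-type Pfkm only 4.11 and 2.22 CPM. Pfkp accordingly took 58.4% of phosphofructokinase UMIs in skin (56.6 to 60.3) and 46.1% in lung (43.8 to 48.4).

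Aldolase and triose phosphate isomerase, which make and interconvert the smaller sugars, showed the largest ratios of the well read enzymes. Aldoa (chr7:126795234-126800751, minus strand) had 1142 CPM in skin T cells (1125 to 1159) and 264 CPM in lung T cells (257 to 271), a ratio of 4.33 (4.20 to 4.45). Tpi1 (chr6:124810586-124814296, minus strand) had 213 CPM in skin (206 to 221) and 47.5 CPM in lung (44.8 to 50.4), a ratio of 4.49 (4.19 to 4.81). Aldoc, the brain-type aldolase, had 22.3 CPM in skin and 3.63 CPM in lung (6.15, 4.84 to 7.89) and was a small share of aldolase UMIs in both, at 1.92% in skin and 1.36% in lung. Summed, the 9 upper enzymes had 1924 CPM in skin and 719 CPM in lung, a ratio of 2.67 (2.62 to 2.73).

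Lower glycolysis was split between enzymes far apart and enzymes close together. Phosphoglycerate mutase (Pgam1, chr19:41911923-41918660, plus strand) had 148 CPM in skin (142 to 154) and 41.9 CPM in lung (39.4 to 44.7), a ratio of 3.52 (3.27 to 3.80). Pyruvate kinase (Pkm), which makes pyruvate, had 1055 CPM in skin and 396 CPM in lung (2.67, 2.60 to 2.74), and enolase (Eno1) 658 and 296 CPM (2.22, 2.16 to 2.29). The enzymes just before them did not follow: phosphoglycerate kinase (Pgk1) had 139 CPM in skin (133 to 145) and 129 CPM in lung (124 to 134), a ratio of 1.08 (1.02 to 1.14). Neighbours in the same pathway thus ranged from near equality to more than 3-fold within the same cells. Eno2 was near the limit of detection, with 19 UMIs in skin and 13 in lung.

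Gapdh, the enzyme that feeds Pgk1, had 956 CPM in skin and 717 CPM in lung, a ratio of 1.33 (1.30 to 1.36), and its value is uncertain. Its log2 ratio of 0.41 was 0.020 with totals without mitochondrial and ribosomal protein genes and 0.040 with median-of-ratios scaling. The tissue difference of Gapdh thus nearly vanished under both. Near-identical copies moved its value as well. Gm3839, listed in both tissues and 99.1% identical to Gapdh over 1232 bases, held 1928 UMIs in skin and 1 in lung. With it added, Gapdh came to 1078 CPM in skin and 717 CPM in lung, a ratio of 1.503 (1.47 to 1.54). Eno1b, 99.5% identical to Eno1, held 79 UMIs in skin and 40 in lung, and adding it left the ratio of Eno1 at 2.23 (2.16 to 2.30). Gm10358, 99.1% identical to Gapdh over 1249 bases, was listed in lung alone and held 0 UMIs there. Pgk1-rs7, identical to Pgk1 over 1255 bases, was listed in skin alone and held 25 UMIs there. A second identifier under the name Aldoa was listed in lung alone and held 0 UMIs there. Gene models that overlap an exon of Hif1a, Bnip3 or Higd1a are listed in lung alone and held at most 19 UMIs. The gene lists differ between tissues, with 27998 genes for skin and 31053 for lung, and how changes in the models of the members moved their values was not tested.

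At the fork between lactate and mitochondria the genes went different ways. Ldha, the lactate dehydrogenase chain that favours lactate, had 863 CPM in skin (848 to 877) and 450.4 CPM in lung (442 to 459), a ratio of 1.92 (1.87 to 1.96). Ldhb, the chain that favours pyruvate, had 45.8 CPM in skin (42.5 to 49.2) and 60.3 CPM in lung (57.2 to 63.5), 1.32 times as much in lung (1.20 to 1.44). Ldhb was therefore 5.04% of lactate dehydrogenase UMIs in skin (4.69 to 5.41) and 11.8% in lung (11.2 to 12.4). Pdk1, the kinase that switches off pyruvate dehydrogenase and a known HIF target, had 23.8 CPM in skin (21.5 to 26.4) and 48.6 CPM in lung (45.9 to 51.6), 2.04 times as much in lung (1.82 to 2.30). On the log2(CPM + 5) scale Pdk1 stood at -0.90, just short of 2-fold lower. Without cells that carry 3 or more markers of another cell type the log2 ratio of Pdk1 was -0.91 and that of Ldhb -0.29.

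The PFKFB enzymes, which set the level of the sugar that switches on phosphofructokinase, were low in both tissues. Pfkfb3 had 9.36 CPM in skin and 7.51 CPM in lung (1.25, 0.994 to 1.56). Pfkfb4 had 15 UMIs in skin and 52 in lung. Their sum was 10.3 CPM in skin and 9.73 CPM in lung, the only step whose ratio interval held 1 (1.06, 0.861 to 1.30).

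The oxygen sensors and Hif1a were higher in skin, in unequal measure. Hif1a (chr12:73901375-73947530, plus strand) had 230.0 CPM in skin (223 to 238) and 127 CPM in lung (123 to 132), a ratio of 1.81 (1.72 to 1.90). Egln1, the main oxygen-sensing hydroxylase, had 10.6 and 6.36 CPM (1.66, 1.32 to 2.08). Egln3, a hydroxylase that HIF itself is known to induce, had 33.4 CPM in skin (30.6 to 36.3) and 6.74 CPM in lung (5.73 to 7.88), a ratio of 4.95 (4.14 to 5.95). Egln3 made up 76.0% of the UMIs of the pair in skin (72.6 to 79.1) and 51.5% in lung (45.7 to 57.2).

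The 8 hypoxia response genes ranged from the largest ratio of all members to below 1. Ero1l (chr14:45283087-45318771, minus strand), which encodes an oxidase that drives disulfide bond formation in the endoplasmic reticulum, had 169 CPM in skin (163 to 176) and 13.7 CPM in lung (12.2 to 15.2), a ratio of 12.4 (11.0 to 13.9). Bnip3, a mitochondrial protein of mitophagy, had 36.3 CPM in skin (33.4 to 39.4) and 6.66 CPM in lung (5.65 to 7.79), a ratio of 5.45 (4.56 to 6.55). Its relative Bnip3l did not follow, with 167 CPM in skin (161 to 174) and 194 CPM in lung (188 to 200), 1.16 times as much in lung (1.10 to 1.22). Higd1a and Ddit4, which temper respiration and mTOR signalling, had ratios of 1.92 (1.81 to 2.02) and 1.70 (1.57 to 1.85). P4ha1, a collagen prolyl hydroxylase, had 56.4 CPM in skin and 52.4 CPM in lung (1.08, 0.988 to 1.18). Mif, a cytokine, had 404 CPM in skin and 324 CPM in lung (1.25, 1.20 to 1.29), and Vegfa only 35 UMIs in skin and 55 in lung, with a log2 ratio of -0.03 that was 0.23 without cells of mixed markers. Classic HIF targets therefore lay on both sides: Ero1l, Bnip3, Egln3 and Slc2a1 were at least 2-fold higher in skin, Pgk1 and P4ha1 were near 1, and Pdk1 was lower.

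Barcodes that passed the filters with no Cd3 UMI gave a comparison within the same libraries, 67 in skin (110802 UMIs) and 292 in lung (644142 UMIs). Markers of other cells were prominent among them, fibroblast markers at 11633 CPM in skin and lung epithelial markers at 81341 CPM in lung. Regulatory T cell markers, all 6 detected in both tissues, summed to 3827 CPM in skin and 733 CPM in lung. These barcodes therefore cannot be taken as free of T cells, least of all in skin. Ero1l had 153 CPM in skin (89.4 to 246) and 23.3 CPM in lung (13.0 to 38.4) there, a ratio of 6.59 (3.10 to 14.2). Aldoa had 812 CPM in skin and 340.0 CPM in lung (2.39, 1.85 to 3.07), and Hif1a 226 and 60.5 CPM (3.73, 2.16 to 6.32). Other members lay near or below 1 there: Pgam1 had a ratio of 1.13 (0.552 to 2.11), Bnip3 1.09 (0.204 to 3.81), Higd1a 0.920 (0.536 to 1.501) and Pfkl 0.727 (0.187 to 2.05), on few counts. The interval lay above 1 for 11 of the 35 members and below 1 for 0, and the share of all genes with such intervals was not counted. The members' median log2 ratio was 0.80 there, against 0.10 for the 8307 genes with a mean of at least 10 CPM.

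The tissue difference was present within each Ccr7 class. Ccr7 was read in 769 of 6400 skin T cells (12.02%, 11.2 to 12.8) and in 4688 of 8349 lung T cells (56.2%, 55.1 to 57.2). With each cell cut down at random to 1000 UMIs, 76 lung cells being too shallow, the shares were 6.53% in skin and 36.3% in lung, against 5.97% (1.65 to 14.6) and 20.7% (15.7 to 26.4) of barcodes with no Cd3 UMI. In skin the thinned share lies within the interval of those barcodes, but that interval rests on 4 of 67 barcodes. They also held regulatory T cell markers at 3827 CPM, so they are no reference for stray molecules. How many of the Ccr7-positive skin cells carry the transcript and how many a stray molecule was not tested. The members' median log2 ratio of skin over lung was 0.65 in Ccr7-positive cells and 0.66 in Ccr7-negative cells, against 0.34 and 0.28 for all genes. At least 2-fold higher in skin were 10 members in Ccr7-positive cells and 12 in Ccr7-negative cells, where the background was 12.5% and 11.7% of genes. None was at least 2-fold lower in either class, where 3.15% and 4.63% of genes were. On the log2(CPM + 5) scale Pfkp, Aldoa, Aldoc, Tpi1, Pgam1, Eno1, Pkm, Egln3, Bnip3 and Ero1l were past 2-fold in both classes. On that scale Slc2a1 (0.89 in Ccr7-positive cells, where its plain CPM ratio was 2.18) and Slc16a3 passed in Ccr7-negative cells alone. These counts moved with the scaling. With totals without mitochondrial and ribosomal protein genes 8 members passed 2-fold on the skin side and 1 on the lung side in Ccr7-positive cells, where 7.91% and 7.09% of genes did, and 10 and 1 did in Ccr7-negative cells, where 7.19% and 8.13% of genes did. With median-of-ratios scaling the counts were 7 and 1 in Ccr7-positive cells (6.17% and 7.62% of genes) and 11 and 1 in Ccr7-negative cells (8.16% and 6.44% of genes).

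**Figure D3:**
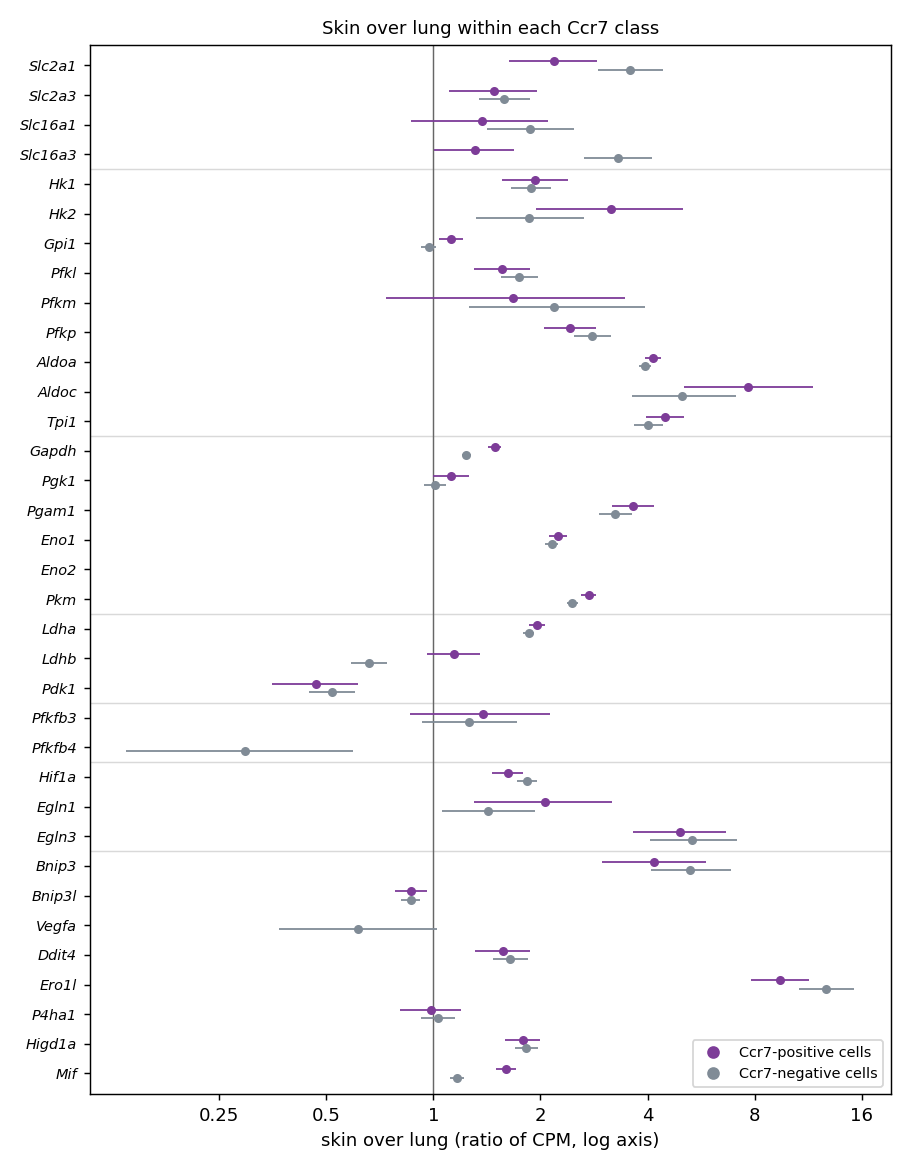
Ratio of skin over lung CPM (log axis) of each member in Ccr7-positive (purple) and Ccr7-negative (grey) T cells, with exact 95% intervals, for members with at least 10 UMIs on both sides. The classes lie close together for most genes, with Slc16a3 (1.31 and 3.29), Slc2a1 (2.18 and 3.57), Hk2 (3.15 and 1.86), Aldoc (7.66 and 5.01) and Ldhb (1.14 and 0.660) more than 1.5-fold apart.

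For some members the ratio depended on the class. Slc16a3, the lactate exporter MCT4, had a ratio of 1.31 (1.00 to 1.69) in Ccr7-positive cells and 3.29 (2.65 to 4.12) in Ccr7-negative cells. In cells under 1% early response UMIs the 2-fold call of Slc16a3 in Ccr7-negative cells was lost, at a log2 ratio of -0.02 in place of 1.36. It rested there on 2 UMIs in 71 skin cells, a level of 10.4 CPM (1.27 to 37.7), against 10.7 CPM (8.002 to 14.1) in lung. In all T cells under that limit its log2 ratio was 0.0086, in place of 0.78. Ldhb had 1.14 (0.959 to 1.35) in Ccr7-positive cells and 0.660 (0.588 to 0.742) in Ccr7-negative cells. With plain CPM its higher level in lung was thus read in Ccr7-negative cells. In Ccr7-positive cells its log2 ratio of 0.18 was -0.27 with median-of-ratios scaling, and 3 of 16 alternatives changed its sign. In Ccr7-negative cells its log2 ratio of -0.55 was -0.0081 among cells with a Foxp3 UMI, and 0 of 16 alternatives changed its sign. For Slc2a1 the ratios were 2.18 (1.63 to 2.89) in Ccr7-positive and 3.57 (2.91 to 4.42) in Ccr7-negative cells. Hk2 went the other way, with 3.15 (1.95 to 5.02) and 1.86 (1.32 to 2.65), as did Aldoc, with 7.66 (5.07 to 11.6) and 5.01 (3.62 to 7.10), and for both the intervals overlapped. Aldoa, with 4.15 and 3.93, and Pdk1, with 0.469 and 0.519, hardly differed between classes.

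Within a tissue, Ccr7-positive and Ccr7-negative cells were close at most steps. In skin the members' median log2 ratio of Ccr7-positive over Ccr7-negative cells was -0.07 (-0.01 for all genes), and in lung it was -0.12 (-0.05 for all genes). On the log2(CPM + 5) scale no member was at least 1.5-fold lower in Ccr7-positive cells of either tissue, where 1.35% of 7334 genes in skin and 2.71% of 6639 genes in lung were. Exactly 1 member in each tissue was at least 1.5-fold higher, where 1.81% and 0.362% of genes were: Ldhb in skin and Slc16a3 in lung. The 17 glycolytic enzymes together had 5631 CPM (5538 to 5726) in Ccr7-positive and 5818 CPM (5777 to 5859) in Ccr7-negative skin cells, and 2682 CPM (2655 to 2709) and 2997 CPM (2963 to 3032) in lung. Depth and composition differed beside this: median UMIs were 2582 and 2022 in skin and 2514 and 2208 in lung, and ribosomal protein genes took 22.5% and 18.2% in skin and 39.7% and 35.9% in lung.

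**Figure D4:**
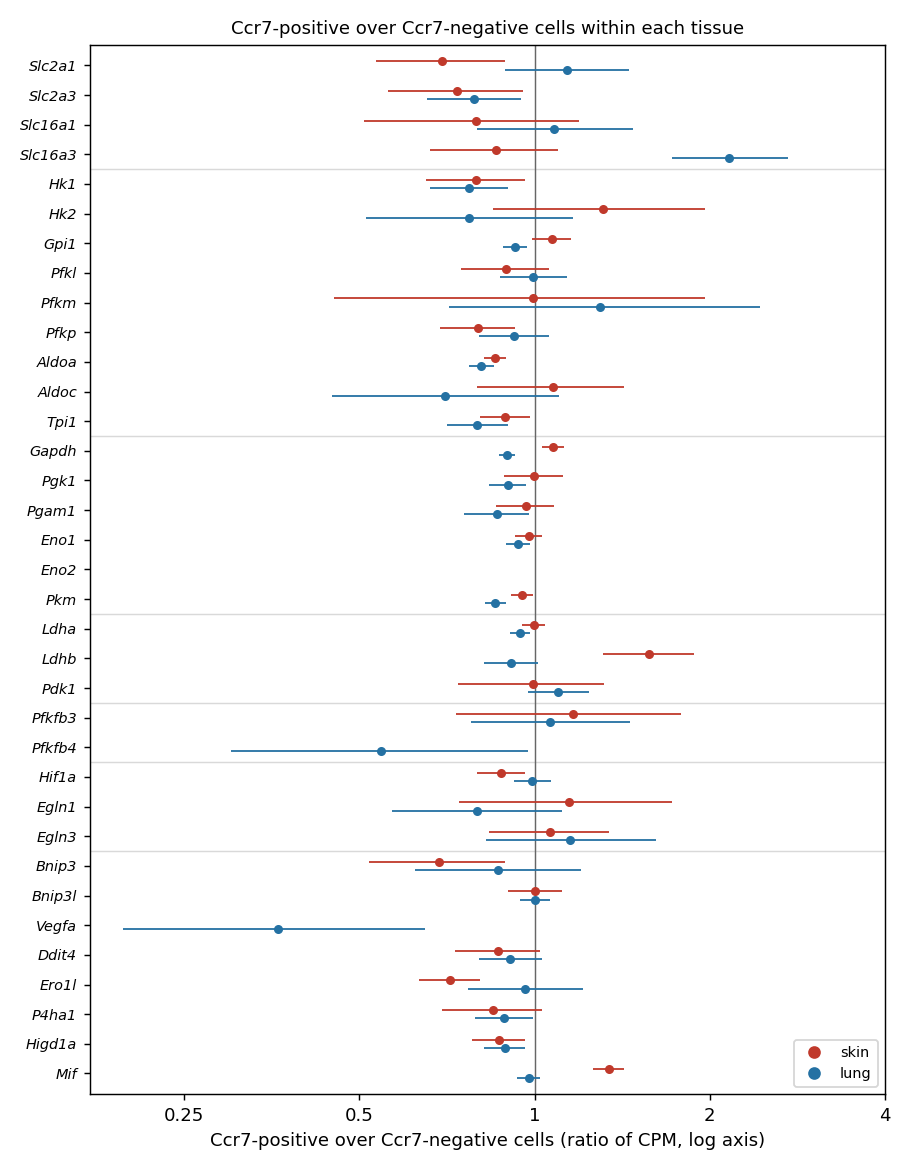
Ratio of Ccr7-positive over Ccr7-negative CPM (log axis) of each member in skin (red) and lung (blue) T cells, with exact 95% intervals, for members with at least 10 UMIs on both sides. Most points lie within 1.5-fold of 1, with Slc16a3 in lung (2.16), Ldhb in skin (1.57), and Pfkfb4 (0.544) and Vegfa (0.362) in lung, both of low counts, outside.

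In skin, Ldhb had 66.2 CPM in Ccr7-positive and 42.0 CPM in Ccr7-negative cells, a ratio of 1.57 (1.31 to 1.88). Its log2 ratio of 0.598 was 0.57 without cycling cells, just short of 1.5-fold. Its share of lactate dehydrogenase UMIs was 7.15% (6.12 to 8.28) and 4.64% (4.28 to 5.03). Mif had 515 and 383 CPM (1.34, 1.26 to 1.43). Lower in Ccr7-positive skin cells were Ero1l, with 127 and 177 CPM (0.716, 0.634 to 0.806), Slc2a1, with 28.6 and 41.2 CPM (0.694, 0.533 to 0.891), and Bnip3, with 26.1 and 38.1 CPM (0.685, 0.520 to 0.890). Intervals lay below 1 for 11 members and above 1 for 3 in skin, and below 1 for 15 and above 1 for 1 in lung. The share of all genes with such intervals was not counted, so these counts have no background. The median log2 ratio of all genes was itself below 0, at -0.01 in skin and -0.05 in lung. Markers of other cells differed beside this in skin. Myeloid markers summed to 699.7 CPM in Ccr7-positive and 447 CPM in Ccr7-negative cells, B or plasma cell markers to 40.4 and 16.004 CPM, regulatory T cell markers to 4789 and 5533 CPM, and fibroblast markers to 2144 and 2151 CPM. The median share of early response UMIs was 2.11% in Ccr7-positive and 2.63% in Ccr7-negative cells, and the part of these in the differences was not tested.

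In lung, Slc16a3 had 23.1 CPM in Ccr7-positive and 10.7 CPM in Ccr7-negative cells, a ratio of 2.16 (1.72 to 2.72). Hk1 (0.771, 0.660 to 0.900), Aldoa (0.811, 0.771 to 0.852) and Tpi1 (0.798, 0.708 to 0.899) were lower in Ccr7-positive cells, by less than 1.5-fold. Vegfa, with 19 UMIs in Ccr7-positive and 36 in Ccr7-negative cells, had a ratio of 0.362 (0.196 to 0.648). Lung epithelial markers moved with Ccr7 there, at 1251 CPM in Ccr7-positive and 7475 CPM in Ccr7-negative cells, and myeloid markers at 319 and 1170 CPM. Without cells that carry 3 or more markers of another cell type, epithelial markers were at 350.5 and 375 CPM. The log2 ratio of Slc16a3 was then 0.88, near the 0.84 of all lung T cells, whereas that of Vegfa was 0.04, against -0.46 in all lung T cells.

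The number of Ccr7 UMIs in a cell gave a finer scale, on which deeper cells tend to count more. Skin had 5631, 467, 120 and 182 T cells with 0, 1, 2 and at least 3 Ccr7 UMIs, and lung had 3661, 1715, 983 and 1990. The 17 enzymes together had 5818, 5947, 5694 and 4919 CPM in skin in that order, and 2997, 2775, 2719 and 2594 CPM in lung. Ero1l in skin had 177, 164, 87.5 and 72.9 CPM, while in lung it stayed between 10.2 and 15.7 CPM. Ldhb in skin had 42.0, 54.0, 57.6 and 97.8 CPM, and Mif 383, 446, 569 and 624 CPM. Slc16a3 in lung had 10.7, 16.1, 18.9 and 30.2 CPM. Intervals of adjacent classes often overlapped, but cells with at least 3 Ccr7 UMIs lay outside the interval of cells with 0 in each of these series except Ero1l in lung: lower for the enzymes in both tissues and for Ero1l in skin, higher for Ldhb and Mif in skin and for Slc16a3 in lung.

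**Figure D5:**
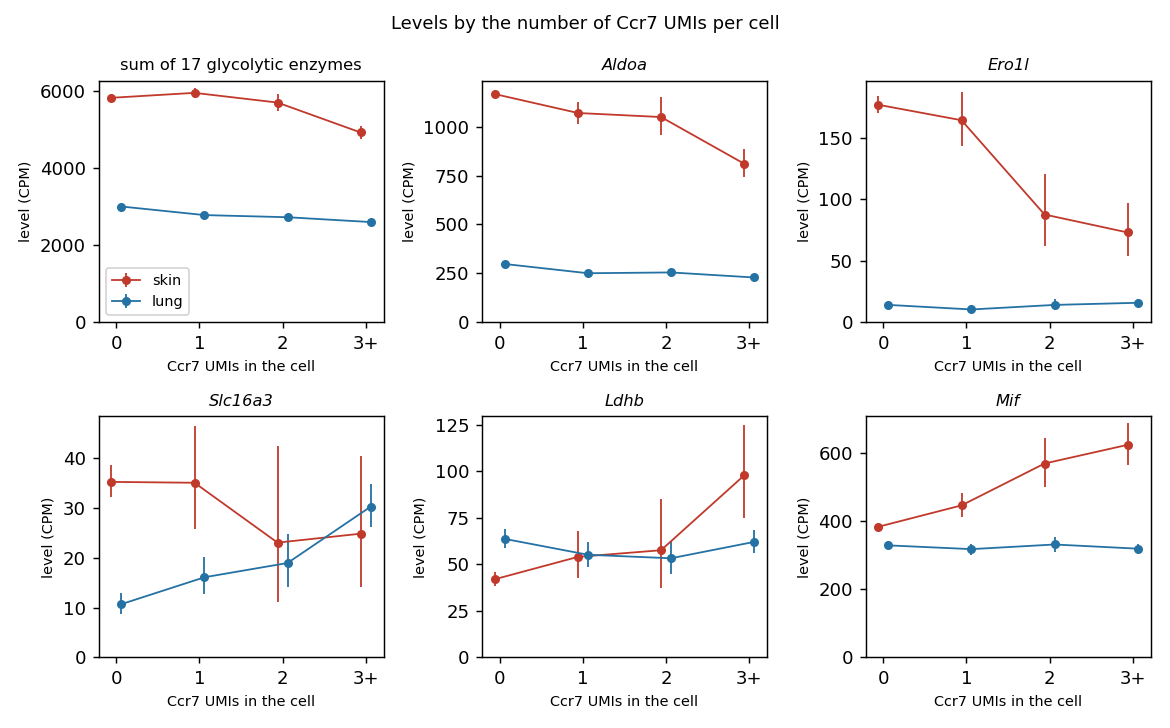
Level in CPM (vertical axes from 0, exact 95% Poisson intervals) against the number of Ccr7 UMIs per cell (0, 1, 2, and 3 or more) in skin (red) and lung (blue) T cells, for the sum of 17 glycolytic enzymes and for 5 members. Skin lies above lung in every class for the enzyme sum, Aldoa and Ero1l, and the tissues meet for Slc16a3 and cross for Ldhb.

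With Ccr7-positive cells limited to at least 2 Ccr7 UMIs, more members separated in skin, as did more of all genes. In the 302 skin cells of this kind, Slc2a1, Slc2a3, Aldoc, Bnip3 and Ero1l were at least 1.5-fold lower than in Ccr7-negative cells, 5 of 35 members against a background of 7.30% of genes, and Ldhb and Mif were at least 1.5-fold higher, 2 of 35 against 5.04%. With at least 1 Ccr7 UMI these backgrounds had been 1.35% and 1.81%. In the 302 cells Aldoc, Slc2a3, Bnip3 and Slc2a1 rested on 12, 18, 20 and 27 UMIs, and Ero1l on 85. Ero1l had 78.8 CPM in these cells and 177 CPM in Ccr7-negative cells (0.446, 0.355 to 0.553), and Ldhb had 81.6 and 42.0 CPM (1.94, 1.53 to 2.43). In the 2973 lung cells of this kind no member was at least 1.5-fold lower, where 3.46% of genes were, and Slc16a3 was the 1 member at least 1.5-fold higher, where 0.785% were.

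Cells in division gave a further contrast, chosen after values were seen. T cells with at least 2 UMIs over 12 cell cycle genes numbered 512 in skin and 453 in lung, and were deeper (median 3913 and 5780 UMIs) than the other cells (2015 and 2323.5). In lung, 12 of 35 members were at least 1.5-fold higher in cycling cells and 1 lower, where 19.9% and 5.49% of genes were. In skin 0 of 35 passed 1.5-fold in either direction, where 5.84% and 1.75% of genes did. Tpi1 in lung had 129 CPM in cycling and 36.4 CPM in other cells (3.55, 3.12 to 4.03), Gapdh 1693 and 584 CPM (2.90, 2.80 to 2.997), and Pgk1 299.8 and 106 CPM (2.84, 2.62 to 3.08). In skin the same genes had ratios of 1.24, 1.39 and 1.42. Cycling lung cells also held more lung epithelial markers, 19669 against 1621 CPM in other cells. Without cells of mixed markers 9 members were at least 1.5-fold higher, all among the 12, and 2, Slc16a3 and Ldhb, were lower, where 19.2% and 6.36% of genes were. The median log2 ratio was then 0.16 for the members and 0.16 for all genes, against 0.34 and 0.18 with every lung T cell, and the log2 ratios of Tpi1, Gapdh and Pgk1 were 1.72, 1.62 and 1.58.

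Related genes outside the 35 were described from lists of the same pathways. Of 25 further glycolysis genes, 9 had a mean of at least 10 CPM and none passed 2-fold, where 12.5% and 4.31% of genes did. Their median log2 ratio was 0.61. The farthest apart was Eno3, the muscle-type enolase, with 7.46 CPM in skin and 19.5 CPM in lung. Of 25 further hypoxia targets, 10 were measured, with a median of 0.91, and 3 were at least 2-fold higher in skin: Bhlhe40, a transcription factor, at 177 and 42.4 CPM, Ndrg1, at 44.9 and 9.64 CPM, and Wsb1, at 96.1 and 44.7 CPM. Of 11 HIF regulators, 9 were measured, with a median of 0.29, and 1 passed 2-fold on each side. Arnt2, a HIF partner best known from brain, had 22.7 CPM in skin and 3 UMIs, 0.128 CPM, in lung, a ratio of 177 (60.2 to 864). Whether the model of Arnt2 differs between the gene lists of the tissues was not tested. Epas1, which encodes HIF-2alpha, had 2.47 and 18.1 CPM, 7.32 times as much in lung (5.27 to 10.4). Among 11 measured genes of glucose sensing, mTOR and Myc, Txnip, which restrains glucose uptake, had 57.4 CPM in skin and 204 CPM in lung, 3.55 times as much in lung (3.31 to 3.82), and Sesn1 24.3 and 80.5 CPM.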

How the data were processed

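Sorted cells of 1 skin and 1 lung sample were captured with 10x Single Cell 3' v2 reagents, per the labels. The authors deposited unscaled UMI counts, whole numbers for each gene in each barcode. Cell Ranger and mm10 are named without a version in the submitters' processing notes, and the lung file header names software version 3.0.2. Aligner settings, the annotation and doublet removal are not given in the sources used here. From these counts, barcodes were filtered and T cells chosen as stated in the report, UMIs of shared genes were summed per group and scaled to CPM, and ratios were taken as log2(CPM + 5). No doublet caller was run, and leaving out the 5% of cells with the most UMIs was an alternative. Poisson, binomial and ratio intervals are exact (95%, Clopper-Pearson for shares, scipy 1.17.1, numpy 2.4.6, Python 3.11.15). PCR and capture make them counting error only. The same code was tested on simulated data with 200 changed genes. Total UMIs were 16190303 over all skin barcodes and 24293511 over all lung barcodes. Filters removed 1 skin barcode with under 200 genes, and 134 skin and 89 lung barcodes with over 10% mitochondrial UMIs.

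All 35 members are named. Of each supporting list, counts are given with up to 3 genes with the largest log2 ratio among those with a mean of at least 10 CPM. The members and lists were chosen with earlier results of these data known. Gene positions are from GENCODE release M21 (GRCm38, counted from 1), near-identical copies (at least 92% identity over at least 150 bases) were found with BLAST+ 2.17.0, and promoter sequence is from RefSeq. Alternatives changed the cell choice, scaling, pseudocount, weighting, depth, Ccr7 threshold and fold. Proteins were not used here.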

Additional observations from a re-analysis of the deposited data

Results flagged for a closer look

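Gapdh differed in direction between tissues by Ccr7 status, with intervals that excluded 1 on both sides. It was higher in Ccr7-positive skin cells, with 1018 CPM against 945 CPM in Ccr7-negative skin cells (ratio 1.08, 1.03 to 1.12), and lower in Ccr7-positive lung cells, with 685 against 764 CPM (0.896, 0.869 to 0.924). The skin value did not hold under several alternatives: its log2 ratio of 0.11 was -0.0027 without the 5% of cells with the most UMIs, -0.085 in cells thinned to 1000 UMIs, 0.0055 without cycling cells and 0.0014 at 2 Ccr7 UMIs. In lung the log2 ratio of -0.16 lay between -0.28 and -0.027 under the alternatives. Each group is 1 library, so that the difference between tissues was not tested.

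A signal stood outside the 35 genes in Gm3839, the copy of Gapdh described above. It held 1928 UMIs in skin and 1 in lung. The gene lists differ in copies of Gapdh, with Gm10358 listed in lung alone. Whether this difference moved the counts of Gm3839 was not tested.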

How the results depend on the processing

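No paired analysis was possible because each tissue has 1 library and the labels give no replicate numbers. The 11 members at least 2-fold higher in skin were 20 at 1.5-fold, where 29.6% of all genes passed, and no alternative but that for early response cells and the other scalings took any of the 11 below 2-fold. The 0 members at least 2-fold higher in lung became 1 at 1.5-fold, with totals without mitochondrial and ribosomal protein genes and with median-of-ratios scaling (Pdk1 in these 3), and 1 in cells under 1% early response UMIs, where 5.12% of all genes passed. With those totals the members' median skin over lung was 0.36, and 0.41 in Ccr7-negative cells. With median-of-ratios scaling the medians were 0.37 in all T cells, 0.44 in Ccr7-negative and 0.20 in Ccr7-positive cells. Among members with a mean of at least 10 CPM they were 0.87 in all and 0.84 in Ccr7-negative cells, where a pseudocount of 1 gave 0.82. Leaving out the 8 members whose copies or overlapping models differ, an alternative chosen after seeing the data, gave 0.67. They were Pfkm, Aldoa, Gapdh, Pgk1, Eno1, Hif1a, Bnip3 and Higd1a. Of the 11 members at least 2-fold higher in skin this took out Aldoa, Eno1 and Bnip3 and left 8, where 12.5% of all genes passed.

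In skin the 0 members at least 1.5-fold lower in Ccr7-positive cells became 7 in cells with a Foxp3 UMI (52 of them Ccr7-positive; 15.2% of all genes passed), 8 in cells under 1% early response UMIs (22; 29.3%), 1 with a pseudocount of 1 (2.21%), 3 after thinning (8.45%) and 5 at 2 Ccr7 UMIs (7.30%). Their median, -0.07, was -0.14 without the 5% of cells with the most UMIs, -0.18 after thinning and -0.17 at 2 Ccr7 UMIs, and it turned to 0.11 in cells under 1% early response UMIs and to 0.011 with totals without mitochondrial and ribosomal protein genes. In lung the 0 became 1 with those totals (3.03% of all genes) and 2 with a pseudocount of 1 (3.45%). The cause was not tested. Of 472 values of single members under the alternatives, 295 lay within the counting interval of the value reported, 177 outside it. Over the 5 comparisons, 1 of 551 values of called members under the alternatives changed sign, that of Slc16a3 given above. Called members had been picked as past the fold, so this count says little of the other members. Among those not called, the skin over lung sign changed in 4 of 15 alternatives for Pgk1 and for Vegfa, and in 0 of 16 for Ldha. With 1 library per tissue, depth limits counting error but says nothing of the spread between animals.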

Other observations

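Genes of neighbouring pathways were read as well. All 9 pentose phosphate genes had a mean of at least 10 CPM, with a median log2 ratio of 0.20 and none past 2-fold, where 12.5% of all genes passed on the skin side and 4.31% on the lung side. Taldo1, a transaldolase of its non-oxidative arm, had 290.0 CPM in skin and 176 CPM in lung (1.64, 1.58 to 1.72), and Rpia 50.1 and 28.7 CPM (1.75, 1.58 to 1.94). Of 13 genes that take pyruvate into mitochondria, 9 were measured, with a median of 0.24 and 1, Mpc1, past 2-fold. Mpc1, a subunit of the mitochondrial pyruvate carrier, had 165 CPM in skin and 78.9 CPM in lung (2.09, 1.97 to 2.22), and Dlat, a pyruvate dehydrogenase subunit, 38.4 and 16.8 CPM (2.28, 2.01 to 2.60). Pdk3, a kinase of the same enzyme as Pdk1, had 30.025 CPM in skin and 15.6 CPM in lung (1.93, 1.68 to 2.22).

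Early response genes had a higher median ratio than the metabolic lists. All 28 were measured, 15 passed 2-fold on the skin side and 3 on the lung side, where 12.5% and 4.31% of all genes did, and the median log2 ratio was 1.47. Nr4a1, a nuclear receptor induced by T cell receptor signals, had 1473 CPM in skin and 153 CPM in lung (9.62, 9.29 to 9.97), and Nr4a3 216 and 16.7 CPM (12.9, 11.7 to 14.4). The 10 measured cell cycle genes had a median log2 ratio of 0.25, with 1 past 2-fold on each side. Mki67 had 21.4 CPM in skin and 7.98 CPM in lung (2.68, 2.23 to 3.22), while Ube2c had 8.47 and 24.2 CPM, 2.86 times as much in lung (2.37 to 3.48).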
